A study of Caenorhabditis elegans with 2 samples.

Results

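The piRNA genes of Caenorhabditis elegans were examined for binding of HMG-20, an HMG-box protein, on chromosome IV and on the other chromosomes. They were defined by the annotation, as all genes of biotype piRNA in the Ensembl annotation of WBcel235, with no use of the binding data. There are 15363 of them among 46890 annotated nuclear genes, and 14714 lie on chromosome IV and 649 on the other 5 nuclear chromosomes. A summit, the single base at which a peak is highest, was assigned to piRNA genes if it lay in a window from 1000 bp upstream to 200 bp downstream of a piRNA 5' end, and each summit was counted once. The data are chromatin immunoprecipitation sequencing with an antibody against GFP, in 1 group of 2 biological replicates. All worms were young adults at 64 hours, synchronised as starved L1 larvae after bleaching, of strain RW12240, whose hmg-20 gene on chromosome I carries TY1, EGFP and 3xFLAG by CRISPR insertion. Whole worms were used, so germline and somatic chromatin were not separated, and worms without the tag were not analysed here. The labels do not say whether the replicates came from separate cultures or plates, only that they are biological. From both replicates together, the conservative list gave 979 nuclear peaks, 162 of them on chromosome IV, and the looser list gave 1912 ranked nuclear regions with a score of 540 or more, 294 of them on chromosome IV. Read depth is unknown, so which regions pass a threshold may depend on it. All intervals below are 95% intervals of counting error only. Those of shares and of ratios to expectation are exact (Clopper-Pearson), and those of odds ratios are exact conditional intervals.

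piRNAs of this worm, also named 21U-RNAs, are short germline RNAs that begin with uridine and guide the Piwi protein PRG-1 to foreign and unwanted transcripts. Each gene gives its own short precursor, made by RNA polymerase II with factors such as SNPC-4 and PRDE-1, and the precursor is then trimmed at both ends and methylated. Most piRNA genes carry a short promoter motif a fixed distance upstream, and a further kind lacks it and arises near the 5' ends of other genes.

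The annotated genes had these features. All 15363 genes were 21 bp long, and 96.2% began with T on their own strand (96.2% on chromosome IV and 95.8% on the other chromosomes). On chromosome IV, 14414 of the 14714 genes lay in 2 broad clusters, which are joined 100 kb bins with 10 or more genes that span at least 500 kb. The first cluster (chromosome IV, 4800001 to 7400000) held 2851 genes, and the second (13500001 to 17493829) held 11563, or 2895 genes per Mb. On the other chromosomes no bin held 10 genes, and the 649 genes there were scattered, from 78 on chromosome III to 202 on chromosome V.

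The upstream motif was searched as CTGTTTCA and as its core GTTTC, which is contained in the longer motif, on the gene's own strand from 70 to 20 bp upstream. The 8-letter motif was found at 5105 genes of chromosome IV (34.7%) and at 43 genes of the other chromosomes (6.63%), against 0.225% of the 31527 other nuclear genes. The 5-letter core was found at 74.8% of the genes on chromosome IV and 44.5% on the other chromosomes, against 9.14% of other nuclear genes. The motif started 46 bp upstream in the median gene of both groups, with quartiles of 47 and 45 bp on chromosome IV. The 5' end was within a protein-coding promoter window of the same size for 14.3% of the genes on chromosome IV and 31.1% on the other chromosomes. Inside a protein-coding gene, on either strand, lay 37.7% of the genes on chromosome IV and 55.6% on the other chromosomes.

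**Figure D1:**
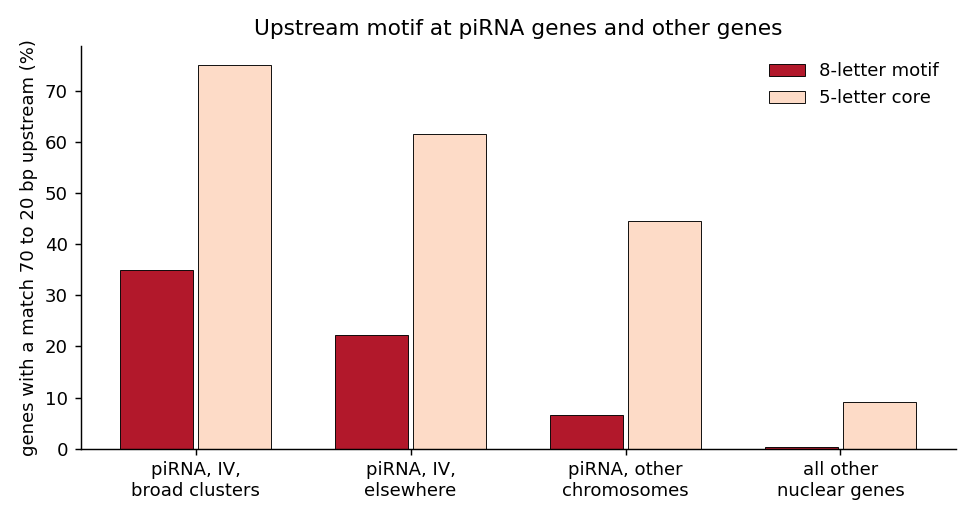
Share of genes with a match to the 8-letter motif or its 5-letter core from 70 to 20 bp upstream of the 5' end (vertical axis, percent), for piRNA genes in the broad clusters of chromosome IV, elsewhere on IV and on other chromosomes, and for all other nuclear genes. The share with the 8-letter motif is 35.0% in the clusters, 22.3% elsewhere on IV and 6.63% on the other chromosomes.

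Sequences are shown for the piRNA genes nearest to the 5 strongest conservative summits in any piRNA window of chromosome IV, and to strong ones on chromosomes II and V, so that the motif can be compared between chromosome IV and the others. Each runs 5' to 3' on the gene's strand from 70 bp upstream to the last base of the gene, read from the RefSeq copy of WBcel235. The first block of capitals marks the motif or its core, where one lies from 70 to 20 bp upstream, and the last 21 capitals are the piRNA gene. Copies of the core that reach nearer to the gene, as in 21ur-5229, 21ur-11151 and 21ur-12218, are left in lower case. The first 5 genes are on chromosome IV, at chrIV:17249222-17249312 (minus strand), chrIV:5967019-5967109 (plus), chrIV:14327393-14327483 (minus), chrIV:15530867-15530957 (minus) and chrIV:15895641-15895731 (plus). The last 4 are at chrV:11979313-11979403 (minus), chrII:1320663-1320753 (plus), chrII:6968318-6968408 (minus) and chrV:11173908-11173998 (minus).
21ur-13616: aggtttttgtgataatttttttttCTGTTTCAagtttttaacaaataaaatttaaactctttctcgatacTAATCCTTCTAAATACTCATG
21ur-5229: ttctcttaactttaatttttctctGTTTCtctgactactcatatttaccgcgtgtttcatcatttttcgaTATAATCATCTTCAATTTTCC
21ur-7591: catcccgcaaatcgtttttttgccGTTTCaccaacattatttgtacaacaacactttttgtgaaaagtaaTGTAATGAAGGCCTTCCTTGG
21ur-11151: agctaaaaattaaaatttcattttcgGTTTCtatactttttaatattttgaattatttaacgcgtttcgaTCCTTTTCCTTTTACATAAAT
21ur-15381: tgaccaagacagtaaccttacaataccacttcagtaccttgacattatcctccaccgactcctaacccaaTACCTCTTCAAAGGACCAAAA
21ur-10927: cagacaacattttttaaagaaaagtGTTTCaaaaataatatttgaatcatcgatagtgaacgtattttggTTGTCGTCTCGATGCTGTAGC
21ur-13751: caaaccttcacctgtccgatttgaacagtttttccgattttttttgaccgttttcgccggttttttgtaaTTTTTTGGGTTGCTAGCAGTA
21ur-14704: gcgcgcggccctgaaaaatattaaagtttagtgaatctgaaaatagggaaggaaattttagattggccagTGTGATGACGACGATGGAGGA
21ur-12218: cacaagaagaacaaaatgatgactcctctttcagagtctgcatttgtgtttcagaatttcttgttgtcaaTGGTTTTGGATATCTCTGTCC

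The first comparison asked whether HMG-20 summits fall in piRNA windows more or less often than random placement on the same chromosome would give. On chromosome IV they fell there less often. Of the 162 conservative summits, 18 lay in a piRNA window, or 11.1% (6.72 to 17.0), against the 25.3% of the chromosome that the windows cover. This is 0.439 times the 41.0 summits expected (0.265 to 0.671; exact binomial test, two-sided, p = 1.13e-05, Benjamini-Hochberg adjusted over 6 chromosomes p = 6.79e-05). In the list with a score of 540 or more, 32 of 294 summits lay in the windows, or 10.9%, which is 0.430 times the number expected (adjusted exact binomial p = 5.78e-09). Of these 32 summits, 2 share the same replicate peaks, so the list holds 31 different pairs of replicate signals there.

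Regions that did not pass the threshold were also fewer in the piRNA windows of chromosome IV. Of 8517 ranked regions of chromosome IV with a score below 830, 1010 had their summit in a piRNA window, or 11.9% (11.2 to 12.6), which is 0.468 times the number expected. No difference between the conservative summits and these regions was detected (odds ratio 0.929, 0.533 to 1.53, two-sided p = 0.902 in Fisher's exact test). At a score of 540 or more the odds ratio against lower scores was 0.908 (0.605 to 1.32, Fisher's exact test p = 0.713). By score, the share was 10.1% at a score of 830 or more, 12.1% from 540 to 829, 13.0% from 400 to 539, 12.1% from 250 to 399, 10.01% from 100 to 249 and 12.3% under 100. The share was thus below the covered 25.3% at every score, and it neither rose nor fell steadily with the score.

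**Figure D2:**
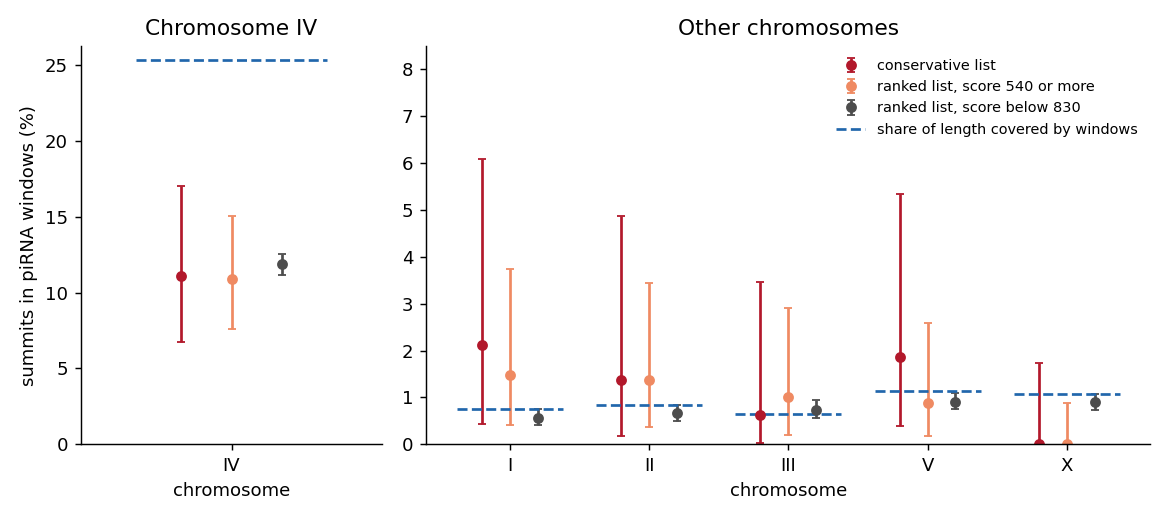
Share of summits that lie in a piRNA window (vertical axis, percent; separate scales) on chromosome IV (left) and on each other chromosome (right), with 95% exact intervals, for the conservative list, the ranked list at a score of 540 or more and ranked regions below 830. The dashed line is the share of the chromosome that the windows cover; on chromosome IV all 3 lists lie between 10.9% and 11.9%, below the covered 25.3%.

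Base composition moved with this result. The piRNA windows of chromosome IV held 31.2% G and C, against 35.7% in the rest of the chromosome. The conservative summits stood in sequence much richer in G and C than either, with a median of 48.5% over 101 bp for the 18 summits in piRNA windows and 49.5% for the 144 outside. Set against positions of chromosome IV with the same G and C content over 101 bp, 22.4 summits were expected in the windows, and the difference of the 18 observed from that number did not pass the test (ratio 0.804, 0.486 to 1.23, exact binomial p = 0.363). Regions with a score below 830 were still fewer in piRNA windows at matched G and C content (1010 against 1556 expected, ratio 0.649, 0.612 to 0.688, exact binomial p = 1.98e-58). In the list with a score of 540 or more, 32 were observed and 42.3 expected, which did not pass the test either (ratio 0.757, 0.526 to 1.04, exact binomial p = 0.0960). The calls on both lists above a threshold thus did not pass at matched base composition, and that on the lower-scoring regions did. Both lists above a threshold hold far fewer summits, and both of their intervals include 0.649 as well as no difference. These lists therefore cannot tell a deficit of that size from none.

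Within the broad clusters of chromosome IV, summits were sparser in the piRNA windows than between them. In the clusters, piRNA windows held 18 conservative summits in 4.11 Mb, or 4.38 per Mb, against 38 in 2.48 Mb outside the windows, or 15.3 per Mb. The rest of the chromosome, with neither windows nor clusters, held 10.02 per Mb. The 300 piRNA genes of chromosome IV outside the clusters had no conservative summit in 0.321 Mb of windows, which allows a share of genes of up to 1.22% by the exact interval. At a score of 540 or more there were 2 summits in these windows. Regions with a score below 830 had densities of 213 per Mb in cluster windows and 590 per Mb in the clusters outside them, against 571 per Mb in the rest of chromosome IV. In the clusters the windows held 31.0% G and C, against 36.1% outside them, and the densities were not matched for this. They are given as a description, with no test between compartments.

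**Figure D3:**
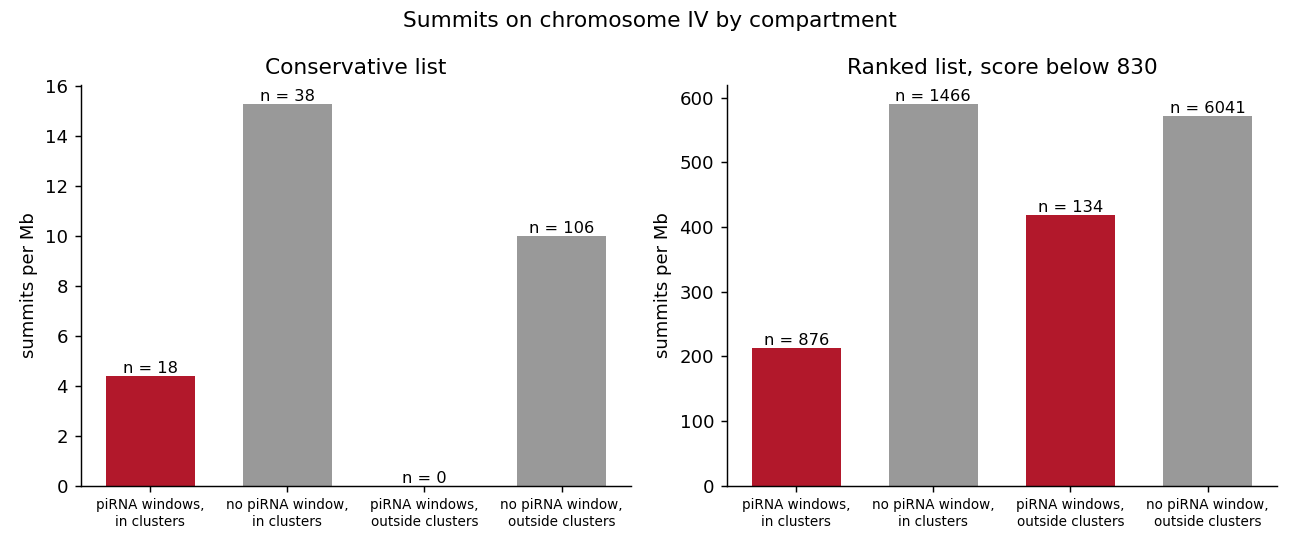
Summits per Mb (vertical axes, separate scales) in 4 compartments of chromosome IV, for the conservative list (left) and for ranked regions with a score below 830 (right), with the number of summits above each bar. In both panels the piRNA windows of the clusters have the lower density beside cluster sequence without windows, 4.38 against 15.3 per Mb at the left and 213 against 590 per Mb at the right.

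The promoters of other genes overlap piRNA windows, and they held many of the summits, both inside piRNA windows and outside them. On chromosome IV, 26.8% of the length of the piRNA windows also lies in the promoter window of another gene. Of the 18 conservative summits, 11 were in that shared part, at 9.26 per Mb, and 7 were in windows with no other promoter, at 2.16 per Mb. Other promoter windows outside piRNA windows held 24.2 summits per Mb, and sequence in neither held 3.70 per Mb. Of the 144 conservative summits outside piRNA windows, 113 lay in another promoter window (78.5%), a larger share than the 61.1% inside. With all other promoter windows left out of both the summits and the length, 7 of 38 summits lay in piRNA windows, or 18.4%, against 27.9% of the length, and this did not pass the test (ratio 0.661, exact binomial p = 0.276). Outside other promoter windows, the list with a score of 540 or more had 4.01 summits per Mb in piRNA windows and 10.4 per Mb elsewhere, and regions below 830 had 201 per Mb in piRNA windows and 545 per Mb elsewhere, with no test made.

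Close to the 5' ends the summits were sparser still. With a window from 300 bp upstream to the 5' end, 2 of the 162 conservative summits of chromosome IV lay in it (1.23%). This is 0.0876 times the number expected from random placement (exact binomial p = 1.23e-08). Base composition was not matched for this window or for the densities below. Of the settings tried, this window was the single one in which the difference of conservative summits from regions below the threshold passed the test (odds ratio 0.245, Fisher's exact test p = 0.0250). Around all piRNA genes of chromosome IV, regions with a score below 830 had 141 summits per Mb in the 200 bp just upstream of the 5' end, against 487 per Mb over the chromosome. The density was already low 3000 bp away on either side, at 217 per Mb upstream and 210.3 per Mb downstream. Most piRNA genes there have other piRNA genes close by. Pairs of a summit and a gene were counted here, so one summit can count for several genes.

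**Figure D4:**
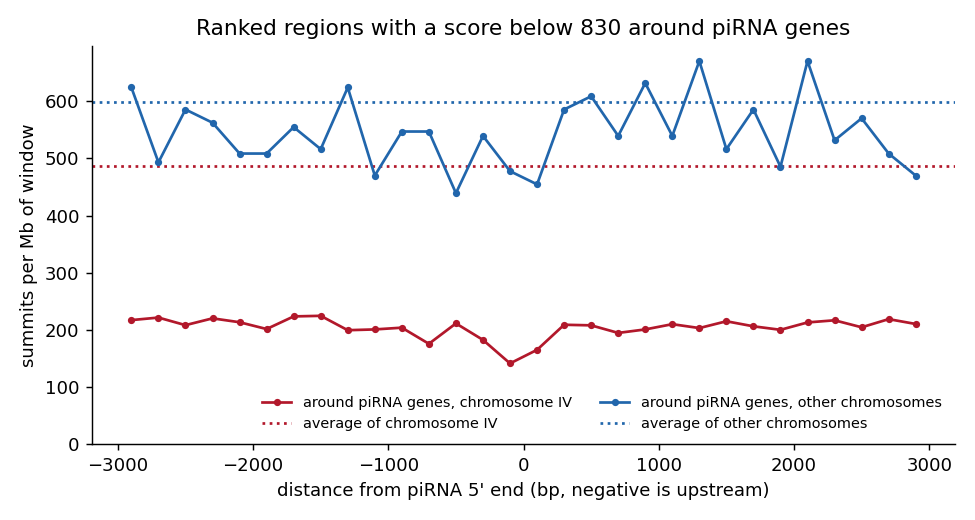
Density of ranked summits with a score below 830 (vertical axis, summits per Mb of window) in 200 bp bins by distance from the piRNA 5' end (horizontal axis, bp, negative is upstream), for genes on chromosome IV and on other chromosomes; dotted lines are the chromosome averages. On chromosome IV the curve lies below its average of 487 per Mb in every bin, with 141 per Mb in the bin just upstream of the 5' end.

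On the other chromosomes no deficit was detected among the summits that passed a threshold. Of 817 conservative summits, 9 lay in a piRNA window, or 1.102% (0.505 to 2.08), against 0.908% expected from the covered length (7.42 summits, ratio 1.21, 0.556 to 2.29, exact binomial test, two-sided, p = 0.576). In the list with a score of 540 or more there were 14 of 1618, with a ratio of 0.947 (0.518 to 1.58, exact binomial p = 1). By chromosome, the conservative counts were 3 of 141 on I, 2 of 146 on II, 1 of 159 on III, 3 of 161 on V and 0 of 210 on X, and none of these passed the test after adjustment. The count of 0 on X allows a share of up to 1.43% by a limit of 3 counts and 1.74% by the exact interval, where 1.08% was expected. At a score of 540 or more, X had 0 of 418 summits in the windows, where 4.51 were expected (exact binomial p = 0.0275, adjusted over 6 chromosomes p = 0.0824), and the exact interval of the share reached 0.879%. Of 49513 regions below 830, 382 lay in the windows, or 0.772%, fewer than expected (ratio 0.833, 0.751 to 0.920, exact binomial p = 2.30e-04), and this call was lost at matched G and C content (ratio 0.934, exact binomial p = 0.188). At matched content the ratio was 1.68 for the conservative list (0.769 to 3.17, exact binomial p = 0.123). It was 1.25 at a score of 540 or more (0.686 to 2.09, exact binomial p = 0.366). No difference between conservative summits and regions below 830 was detected (odds ratio 1.43, 0.648 to 2.76, Fisher's exact test p = 0.308).

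Chromosome IV had a higher raw share of summits in piRNA windows than the other chromosomes, and a lower one relative to the windows' length. The raw shares were 11.1% on IV and 1.102% on the others (odds ratio 11.2, 4.66 to 28.8). Since the windows cover 25.3% of chromosome IV and 0.919% of the others, random placement also gives an odds ratio far above 1, so the raw shares are given as a description. Of the 27 window summits, 66.7% were on chromosome IV (46.0 to 83.5), against 84.7% if all were placed at random on their chromosomes (exact binomial p = 0.0157), which gives a ratio to expectation on IV that is 0.362 times that on the others. That test was chosen after the data were seen. In the list with a score of 540 or more it gave 69.6% against 83.4% (exact binomial p = 0.0168). Regions below 830 showed the same direction, with 72.6% against 82.5% (exact binomial p = 7.12e-20), so it was not limited to summits that passed a threshold. Base composition was not matched in these comparisons of IV with the others. The windows held 31.2% G and C on IV (35.7% outside) and 34.4% on the others (35.6% outside).

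Counted by gene, few piRNA genes had a summit in their window. On chromosome IV there were 57 of 14714 (0.387%, 0.294 to 0.502), where 4.07% of the other genes on that chromosome had a summit in their own promoter window. On the other chromosomes there were 9 of 649 (1.39%, 0.636 to 2.62), where the share of other genes was 4.19%. At a score of 540 or more the counts were 89 genes on IV (0.605%) and 14 on the others (2.16%), where 5.93% of other genes on IV and 6.2% on the others had a summit. Other genes can have several transcripts and thus several windows, and the 57 genes share 18 summits, so these shares are given with no test. One summit, 280 bp upstream of 21ur-8889, lay in the windows of 14 piRNA genes.

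Genes with the motif were also described beside those without it. On chromosome IV a conservative summit was found at 22 of 5105 genes with the 8-letter motif (0.431%, 0.270 to 0.652) and at 35 of 9609 without it (0.364%, 0.254 to 0.506). On the other chromosomes it was found at 0 of 43 genes with the motif, which allows a share of up to 6.98% by a limit of 3 counts (8.22% by the exact interval), and at 9 of 606 without it (1.49%). All 9 of these genes had their 5' end within the promoter window of another gene, out of 262 such genes (3.44%), and none of the 387 other piRNA genes there had a summit, which allows up to 0.775% by a limit of 3 counts (0.949% by the exact interval). Of the genes there that are not piRNA genes, 4.19% had a conservative summit in their own promoter window. Promoter windows of such genes also held 75.9% of the 808 conservative summits there outside piRNA windows. On chromosome IV the counts of piRNA genes with a summit were 26 of 3024 genes in another gene's promoter window (0.860%) and 31 of 11690 outside any (0.265%). No test was made between these groups, since neighbouring genes share summits.

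The summits in piRNA windows of chromosome IV were often nearer to another gene than to the piRNA gene. Another 5' end was nearer in 11 of the 18, and in 9 it was within 100 bp, while a piRNA 5' end was within 100 bp in 1. Such distances were not counted for summits outside piRNA windows, so these counts for the 18 are a description. The strongest summit (chrIV:17249846-17249969) had replicate signals of 86.0 and 122 (mean 104 ± 25.2, SD, n = 2), where the order of the replicates is not named in the file. It lay 655 bp upstream of 21ur-13616 (WBGene00171177) and 234 bp upstream of eelo-2, a protein-coding gene. Both of its replicate values were above those of every other summit in a piRNA window. The summit at chrIV:5967048-5967303 had replicate signals of 64.3 and 48.0 (56.2 ± 11.5, SD, n = 2). It lay 87 bp past the start of 21ur-5229 (WBGene00045617), the nearest approach to a piRNA 5' end on chromosome IV, and 16 bp inside the tRNA gene WBGene00022903. The summit at chrIV:14327041-14327296 had replicate signals of 62.6 and 45.1 (53.9 ± 12.4, SD, n = 2). It lay 244 bp downstream of the start of 21ur-7591 (WBGene00165832), in the windows of 3 other piRNA genes, and 48 bp upstream of the snoRNA gene Y67A10A.14.

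In the other strong cases on chromosome IV no other promoter was near. At chrIV:15895947-15896202 the replicate signals were 80.5 and 35.0 (57.7 ± 32.2, SD, n = 2), so the replicates were more than 2 times apart. That summit lay 364 bp downstream of the start of 21ur-15381 (WBGene00173092), in the windows of 7 other piRNA genes, and 1842 bp from the protein-coding gene srv-14. At chrIV:15530623-15530878 the replicate signals were 79.9 and 38.2 (59.0 ± 29.4, SD, n = 2), also more than 2 times apart. That summit lay 136 bp downstream of 21ur-11151 (WBGene00165027) and 1545 bp from a pseudogene, WBGene00206491. Both of these peaks were in the list of replicate 1 alone and not in that of replicate 2.

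The other 13 summits on chromosome IV had pooled signals from 42.8 to 81.2. Over all 18, the promoter windows of tRNA genes held 4, of snRNA genes 2, of snoRNA genes 1, of protein-coding genes 3 and of other ncRNA genes 8, where one summit can count in several classes. Small RNA genes of the first 3 classes were at 7 of 18 (38.9%), against 33 of the 144 summits outside piRNA windows (22.9%). The pooled signal had a median of 73.2 in the windows and 76.6 outside them. Of the 18 peaks, 3 overlapped the lists of both replicates, 6 overlapped the list of 1 replicate alone and 9 overlapped neither (50%, against 43.1% of the 144 outside). No test was made between the peaks in piRNA windows and the other peaks of the chromosome.

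**Figure D5:**
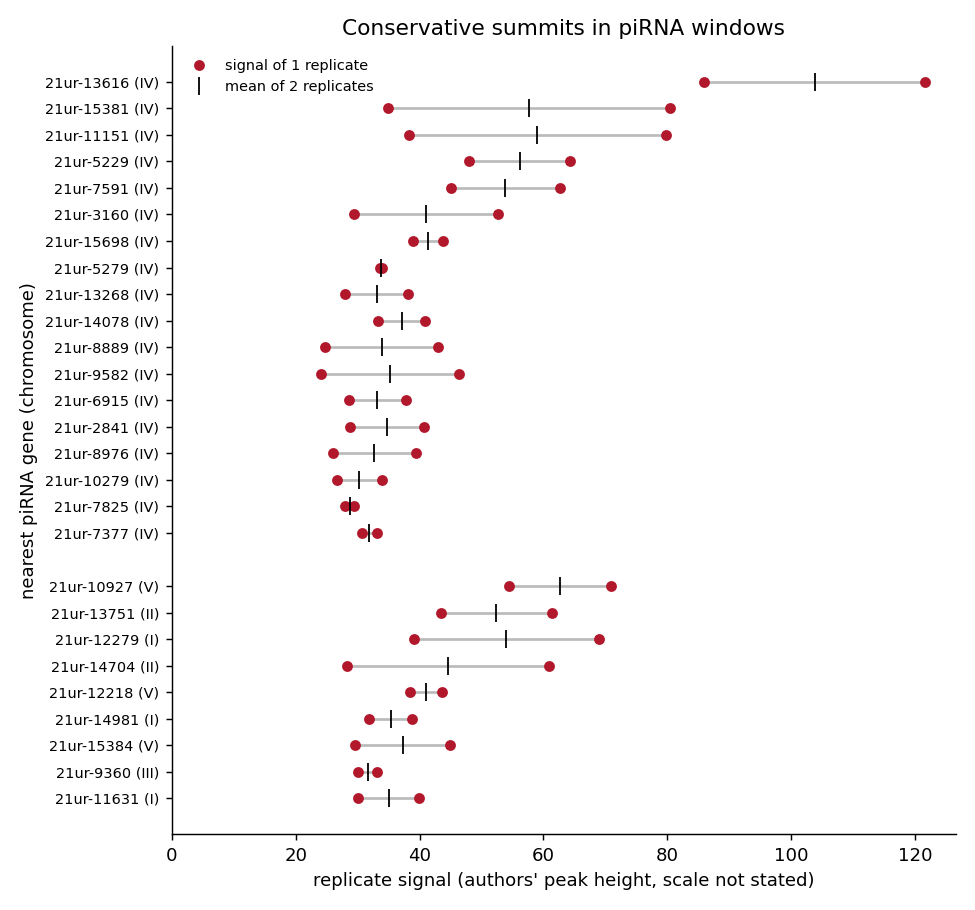
Signal of each replicate (red points) and their mean (black tick) at the 27 conservative summits in piRNA windows, named by the nearest piRNA gene and its chromosome; the horizontal axis is the deposited peak height, in units not stated. The summit near 21ur-13616, with 86.0 and 122, stands above the others.

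On the other chromosomes, every one of the 9 summits lay in the window of a single piRNA gene, 5 were nearer to another gene's 5' end than to the piRNA gene's, and 5 were within 100 bp of another 5' end. Such distances were not counted for the summits there outside piRNA windows. The strongest of the 9 (chrV:11979969-11980224) had replicate signals of 54.4 and 70.95 (62.7 ± 11.7, SD, n = 2). It lay 764 bp upstream of 21ur-10927 (WBGene00169538) and 21 bp upstream of the snRNA gene T11F9.15. On chromosome II, a summit 111 bp upstream of 21ur-13751 (WBGene00172169) had replicate signals of 61.3 and 43.5 (52.4 ± 12.6, SD, n = 2), and the next 5' end was that of vig-1, 415 bp away. Another, 215 bp upstream of 21ur-14704 (WBGene00169292), had 61.0 and 28.2 (44.6 ± 23.2, SD, n = 2) and lay inside the snRNA gene sup-39, 2 bp from the 5' end of an entry named mir-1831 that the annotation also classes as snRNA. The replicates of that peak were more than 2 times apart.

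The remaining named summits off chromosome IV stood at genes of other kinds. On chromosome I, a summit 119 bp upstream of 21ur-12279 (WBGene00168505) had replicate signals of 69.0 and 39.1 (54.0 ± 21.1, SD, n = 2) and lay 11 bp upstream of atp-1, which encodes a subunit of the mitochondrial ATP synthase. On chromosome V, a summit 970 bp upstream of 21ur-12218 (WBGene00174366) had 43.6 and 38.4 (41.0 ± 3.67, SD, n = 2) and lay 25 bp upstream of the tRNA gene WBGene00014521. The nearest approach to a piRNA 5' end was on chromosome I, 82 bp upstream of 21ur-11631 (WBGene00168457), where the replicate signals were 39.9 and 30.1 (35.0 ± 6.92, SD, n = 2). The 5' end of the ncRNA gene D1007.22 was 83 bp from that summit. Protein-coding promoter windows held 7 of the 9 summits, and 1, inside hcp-3 on chromosome III, was in no other promoter window. Another promoter window thus held 88.9% of the 9, against 75.9% of the 808 conservative summits there outside piRNA windows. For tRNA, snoRNA and snRNA promoter windows the shares were 44.4% and 30.7%. No test was made between these groups, and 9 summits are few.

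Genes whose products make or use piRNAs were looked up in a list of 32. Of these, 31 were matched to protein-coding genes, and 1 had a conservative summit in its promoter window (3.23%), where 3.13% of all protein-coding genes did. The 12 genes for transcription, among them prde-1, snpc-4, tofu-4 and tofu-5, had none, and the distance from a 5' end to the nearest conservative summit had a median of 45712 bp. The 11 genes for processing, among them the trimming nuclease gene parn-1 and the methyltransferase gene henn-1, had none, and the summit nearest to henn-1 was 4958 bp away. Of 8 effector genes, prg-1, hrde-1, wago-1, wago-4, mut-16, rde-3 and csr-1 had none. The exception was ego-1, which encodes an RNA-dependent RNA polymerase that makes secondary small RNAs. Its summit (chrI:7656660-7656915) lay 450 bp upstream, with replicate signals of 31.9 and 38.7 (35.3 ± 4.83, SD, n = 2). The same summit was 314 bp upstream of the piRNA gene 21ur-14981, which lies between the summit and ego-1, so it is among the 9 above. In the list with a score of 540 or more ego-1 was again the 1 gene with a summit, where 4.78% of protein-coding genes had one.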

How the data were processed

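Deposited peak lists of 2 biological replicates were used, in ce11 coordinates (WBcel235) by their names. For aligner and peak caller, the sources used here give no name. In the deposited lists the score is the scaled irreproducible discovery rate (IDR), where 540 is an IDR of 0.05 and 830 of 0.01. The signal is the authors' peak height, on a scale the files do not state, and the deposited −log10 columns, of the q-value and the IDR, were not used. The conservative list equals the ranked regions with a score of 830 or more without 87 that the authors left out, of which 0 lay in piRNA windows. Start positions are 1-based, no region lay outside the WBcel235 chromosomes (0 regions), and mitochondrial peaks were left out.

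Random placement was computed exactly, as the covered share of each chromosome's length. Counts were compared with it by exact binomial tests and with each other by Fisher's exact test, which treat summits as independent. The calculation was tested on simulated data. Members and lists were chosen with earlier results of these data known. Named genes are those nearest to the 5 strongest conservative summits in piRNA windows on IV and on the others, with the nearest other 5' end, the summit nearest to a piRNA 5' end on each, and pathway genes with a summit. Placement at matched G and C content was added after the data were seen. Tests ran in SciPy 1.17.1 under Python 3.11.15, tables in pandas 2.3.3 and NumPy 2.4.6, and plots in matplotlib 3.10.9.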

Additional observations from a re-analysis of the deposited data

How the results depend on the processing

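On chromosome IV the deficit against random placement passed the test in 12 of 15 alternatives, with ratios from 0.0876 to 0.551, among them replicate 2 alone (0.343) and replicate 1 alone (0.551). These 12 share many summits and all take the expectation from covered length, so they are not independent of each other. The deficit did not pass against regions below the threshold (0.937), at positions of the same G and C content (0.804) or with other promoter windows left out (0.661). On the other chromosomes no alternative passed the test. Their ratio, 1.21 on the conservative list, was 0.947 at a score of 540 or more, 0.991 there without the regions the authors left out, 0.996 without tRNA, snoRNA and snRNA windows and 0.588 without any other promoter window. In the other 11 alternatives it stayed above 1, and it was 1.68 at the same G and C content and 2.14 with 300 bp upstream. The odds ratio of conservative against lower-scoring regions on IV was 1.02 with 2000 bp upstream, 1.59 without other promoter windows, 0.708 and 1.21 with 1 replicate left out, and 0.245 with 300 bp upstream, and off IV it was 0.733 without other promoter windows. Between IV and the others, the odds ratio of raw shares was 2.54 with 300 bp upstream (Fisher's exact test p = 0.260), and 8.86 and 13.1 with 1 replicate left out. Divided by the windows' covered share, IV over the others gave 0.362, in the opposite direction (exact binomial p = 0.0157). The cause of these changes was not tested.

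Gene counts on IV were 89 at a score of 540 or more, with or without the regions the authors left out, 22 with 500 bp on each side, 122 with 2000 bp upstream, 3 with 300 bp upstream, 35 without small RNA windows and 31 without other promoter windows. They were 17 and 26 with 1 replicate left out. Of the 649 piRNA genes on the others, the counts were 14 at a score of 540 or more, 15 with 2000 bp upstream and 4 with 300 bp upstream. They were 5 without small RNA windows, 1 without other promoter windows, and 4 and 5 with 1 replicate left out. The counts rose with the width of the window. Apart from the score of 540 or more, the share of other genes was not computed at these settings, so the counts are a description. The pathway count was 0 with 300 bp upstream, and 0 to 1 with 1 replicate left out. No paired analysis was possible because there is 1 group. Depth is unknown, and no limit was computed from it.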
